A study of Homo sapiens with 9 samples.

Results

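The basal and simple epithelial keratins examined here are KRT5, KRT14, KRT15, KRT17, KRT16 and KRT6A, found in basal and stratified epithelium, and KRT7, KRT8, KRT18 and KRT19, found in simple and luminal epithelium. They were chosen by name. A keratin was measured where the array annotation assigned a probe set to its symbol alone, and the brightest such probe set by mean over the arrays was used where there were several. This gave 8 of the 10 keratins, among 18417 genes measured in the same way. The annotation used here assigned none to KRT6A or KRT17 alone, so neither has a value below. Total RNA labelled as that from SK-BR-3, a human breast cancer cell line known for its amplified ERBB2, was hybridised to Affymetrix Human Gene 1.0 ST arrays. By their labels, 3 arrays came from cells stably transfected with TFPIα cDNA, 3 from cells stably transfected with TFPIβ cDNA and 3 from cells carrying the empty vector. TFPIα and TFPIβ are isoforms of tissue factor pathway inhibitor, an inhibitor of the start of blood clotting. Both cDNAs were in pcDNA3.1/V5/His-pTOPO, the vector that the control cells received without an insert, so all 3 groups had gone through transfection and drug selection. The labels name puromycin as the selecting drug, whereas the study's methods name neomycin. The methods describe the lines as pools of stable transfectants, and the design text the 3 arrays of a group as separate RNA isolations, so p-values measure the spread between isolations of a line and not between independently made lines.

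Keratins are the intermediate filament proteins of epithelial cells. A filament is built from pairs of an acidic type I keratin, such as KRT14, KRT15, KRT16, KRT17, KRT18 or KRT19, and a basic type II keratin, such as KRT5, KRT6A, KRT7 or KRT8, and the filaments are tied to the cell membrane at desmosomes and hemidesmosomes. In the breast, KRT5 and KRT14 are known as keratins of the basal, myoepithelial layer, and KRT8, KRT18 and KRT19 as keratins of the luminal layer. Tumours are commonly typed by which of these sets they express.

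In KRT5, KRT14, KRT8 and KRT19 the signals were unlike the luminal pattern described above, while KRT18, also a luminal keratin, was bright. KRT5 ranked 4 to 8 and KRT14 5 to 34 of 18417 genes over the 9 arrays, while KRT8 lay at percentiles 55.10 to 65.12 and KRT19 at 38.14 to 48.82, where a higher percentile is a brighter signal within its array. A probe set's signal also depends on how well its probes bind, so these ranks order signals and not amounts of RNA. In RNA of whole cultures, fewer cells that make a keratin and less of its RNA per cell cannot be told apart. Of the basal epithelial markers other than keratins, 8 were measured and 7 had a mean percentile of 80 or above, among them S100A2, SFN and ITGA6. Of the markers of luminal cells and of SK-BR-3, 16 were measured and 11 were below percentile 50, with the epithelial adhesion molecule gene EPCAM at 6.25 to 10.37 and ERBB2 at 54.74 to 65.84. The exceptions at the top of that list were XBP1 at 94.79 to 97.47 and MUC1 at 76.54 to 95.99. The keratins of simple epithelium were thus divided, since KRT7, at percentiles 98.40 to 99.15, and KRT18, at 96.93 to 99.14, were near the top while KRT8 and KRT19 were not. Of the squamous differentiation markers, 10 of 12 were below percentile 50. VIM, an intermediate filament gene of mesenchymal cells and of many cultured lines, lay at 98.63 to 99.11. Of the leukocyte markers, PTPRC lay at 3.29 to 4.25 and CD3E at 14.38 to 21.70, while CD14 lay at 70.18 to 95.84. The cells are therefore referred to by their labels only. The signal of TFPI itself averaged 5.66 ± 0.15 in TFPIα-labelled arrays, 5.72 ± 0.14 in TFPIβ-labelled arrays and 6.25 ± 0.38 in arrays labelled empty vector (log2, SD, n = 3 each), so the probe set did not show the overexpression the labels name. According to the study's text the transfected cDNAs held the coding region alone, so array probes in untranslated parts of the transcript missed them. The study also reports TFPI as upregulated with either isoform when another signal algorithm, PLIER, was used, and by quantitative PCR in earlier work. The signal of this probe set used here therefore does not check the labels, and all group names below are those of the labels.

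**Figure D1:**
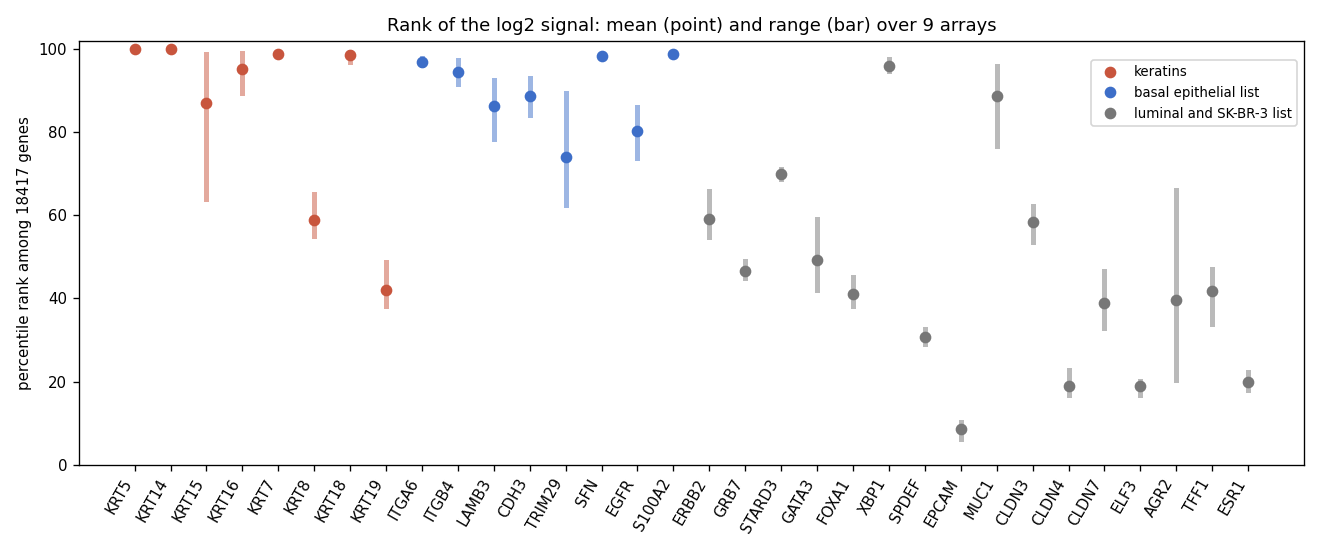
Percentile rank of the log2 signal among 18417 genes, with the mean over 9 arrays as a point and the range over the arrays as a bar, for 8 keratins, the basal epithelial list and the luminal and SK-BR-3 list. KRT5, KRT14, KRT7 and KRT18 sit near the top, KRT8 and KRT19 in the middle, and KRT15 spans 63.83 to 98.80.

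KRT5 and KRT14, which pair with each other in basal cells, were the 2 brightest of the 8 keratins in all 9 arrays. KRT5 had log2 signals of 12.78, 12.44 and 12.50 in TFPIα-labelled arrays, 12.83, 12.78 and 12.40 in TFPIβ-labelled arrays and 12.68, 12.75 and 12.60 in arrays labelled empty vector. The groups overlapped, and the lowest values were those of TFPIβ replicate 3, TFPIα replicate 2 and TFPIα replicate 3. KRT14 had 12.69, 11.99 and 12.18 in TFPIα-labelled arrays, 12.74, 12.56 and 12.01 in TFPIβ-labelled arrays and 12.62, 12.54 and 12.49 in arrays labelled empty vector. Its lowest arrays were the same 3 as those of KRT5. The log2 fold change of KRT5 was -0.10 for TFPIα against empty vector (SE 0.14, 95% interval -0.42 to 0.22) and -0.01 for TFPIβ against empty vector (SE 0.14, -0.33 to 0.31). For KRT14 the values were -0.26 (SE 0.22, -0.77 to 0.25) and -0.12 (SE 0.22, -0.63 to 0.39). Without TFPIβ replicate 3 the TFPIβ values turned to 0.13 for KRT5 and 0.10 for KRT14, and without empty vector replicate 2 that of KRT5 turned to 0.03.

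RefSeq's promoter table for GRCh38.p14 held 2 of the 10 keratins, KRT5 and KRT8, and both are shown because KRT5 stood beside the brightest genes and KRT8 in the middle of the range. Printed 5′ to 3′ on the gene's strand are the 250 bases before the transcript start, chr12:52520395-52520644 (minus strand) for KRT5 and chr12:52926470-52926719 (minus strand) for KRT8. Capitals mark a match to the half-site of the p53 family of transcription factors, which includes p63, known as a regulator of basal keratins.
KRT5: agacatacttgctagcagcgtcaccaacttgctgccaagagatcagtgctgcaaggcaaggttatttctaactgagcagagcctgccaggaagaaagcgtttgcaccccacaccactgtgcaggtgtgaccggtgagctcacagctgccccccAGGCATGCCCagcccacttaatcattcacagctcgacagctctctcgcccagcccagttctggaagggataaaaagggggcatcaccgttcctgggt
KRT8: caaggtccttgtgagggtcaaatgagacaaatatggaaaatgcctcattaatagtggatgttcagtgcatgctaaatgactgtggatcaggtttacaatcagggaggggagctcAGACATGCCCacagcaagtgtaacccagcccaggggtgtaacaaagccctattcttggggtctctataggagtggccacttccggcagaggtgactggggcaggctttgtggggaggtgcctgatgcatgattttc
The match began 97 bases before the start in KRT5 and 136 bases before it in KRT8. It reads as a match on both strands, since the consensus is its own reverse complement, and 5.57% of 35116 promoter windows of this length held at least 1. Neither window held an AP-1 site (TGANTCA, in 6.57% of windows), a TATA box written as TATAAA (10.7%) or a GC box (GGGCGG, 42.6%) on either strand. A match describes these letters and does not show that a factor binds there, and both the bright and the intermediate keratin had one. TP63, the gene of p63, was not measured by a probe set of its own.

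KRT15, a type I keratin of basal cells and of the stem cells of the hair follicle, varied most. It had log2 signals of 10.02, 6.60 and 6.19 in TFPIα-labelled arrays, 10.48, 10.39 and 6.20 in TFPIβ-labelled arrays and 9.98, 10.04 and 8.29 in arrays labelled empty vector. Its values thus lay in separate sets, with 5 arrays at 9.98 to 10.48, 3 at 6.19 to 6.60 and empty vector replicate 3 between them at 8.29. Each vector group held arrays from at least 2 of the sets, and the groups overlapped. Its range was 4.29 on the log2 scale, and its SD over the 9 arrays of 1.88 was higher than that of 99.9943% of the 17482 probe sets that passed the filter on low values. KRT15 ranked 222 of 18417 genes in TFPIβ replicate 1 and 6662 in TFPIα replicate 3. By replicate number, the 3 arrays numbered 1 averaged 10.16 ± 0.28, those numbered 2 averaged 9.01 ± 2.09 and those numbered 3 averaged 6.89 ± 1.21 (SD, n = 3 each). All 3 groups were high at number 1 and at their lowest at number 3. The replicate number accounted for 58.3% of the sum of squares of KRT15 and the vector group for 19.6%, against medians of 30.7% and 31.0% over all probe sets tested. The log2 fold change of KRT15 was -1.83 for TFPIα against empty vector (SE 1.35, 95% interval -4.94 to 1.27), -0.41 for TFPIβ against empty vector (SE 1.35, -3.52 to 2.69) and 1.42 for TFPIβ against TFPIα (SE 1.35, -1.68 to 4.52). The value for TFPIβ against empty vector turned to 0.999 without TFPIβ replicate 3, and that for TFPIα against empty vector was -3.04 without TFPIα replicate 1 and -1.13 without TFPIα replicate 3. At matched replicate numbers the difference of TFPIα from empty vector was 0.03, -3.43 and -2.09, and that of TFPIβ from empty vector 0.50, 0.35 and -2.09, so TFPIα was lower at numbers 2 and 3 and TFPIβ at number 3.

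KRT16, a type I keratin that epidermal cells make after wounding and when they proliferate, was second to KRT15 in spread, with an SD of 0.72. It had log2 signals of 9.07, 8.14 and 8.99 in TFPIα-labelled arrays, 9.58, 10.52 and 8.43 in TFPIβ-labelled arrays and 9.27, 9.83 and 8.82 in arrays labelled empty vector. Replicate 2 was the lowest array of the TFPIα group and the highest of both others, and the groups overlapped. Its log2 fold change was -0.57 for TFPIα against empty vector (SE 0.51), 0.21 for TFPIβ against empty vector (SE 0.51) and 0.78 for TFPIβ against TFPIα (SE 0.51). The value for TFPIβ against empty vector turned to -0.30 without TFPIβ replicate 2 and to -0.04 without empty vector replicate 3, while that for TFPIα against empty vector was -0.27 without TFPIα replicate 2. Another probe set, assigned to KRT16 and to the pseudogenes KRT16P1, KRT16P2 and KRT16P3 together, varied with it over the arrays (Pearson r = 0.989, n = 9 arrays, both reading related sequence). Basal type I keratins are close in sequence, and whether this probe set also reads the RNA of a relative was not tested.

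**Figure D2:**
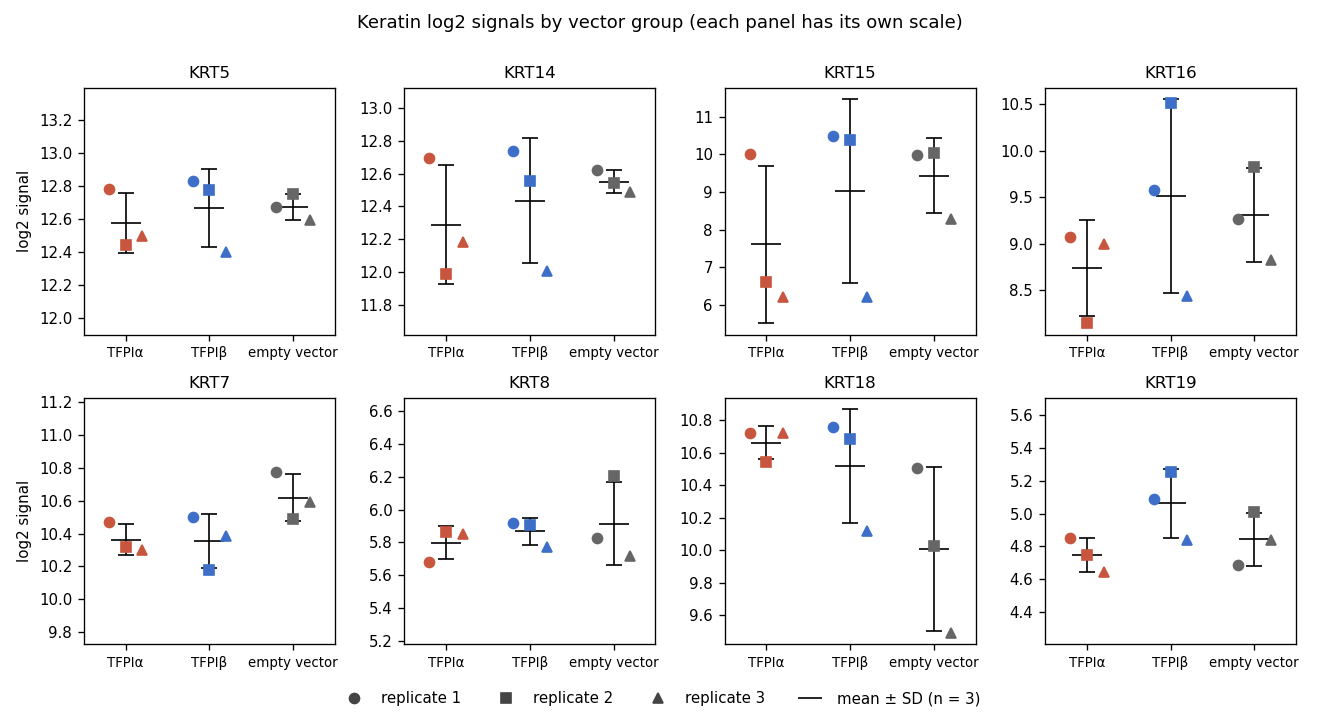
Log2 signal of 8 keratins in each of the 9 arrays by vector group, with symbols for the replicate number and the mean ± SD of each group (n = 3), each panel on its own scale. KRT15 is at 9.98 to 10.48 in the arrays numbered 1 of every group and at 6.19, 6.20 and 8.29 in those numbered 3.

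Among the keratins of simple epithelium, KRT18, the type I partner of KRT8, was higher in both transfected groups than in the empty vector group by value, without passing the test. It had log2 signals of 10.72, 10.55 and 10.72 in TFPIα-labelled arrays, 10.76, 10.69 and 10.12 in TFPIβ-labelled arrays and 10.50, 10.02 and 9.49 in arrays labelled empty vector. All TFPIα values lay above all empty vector values, while those of TFPIβ overlapped with them. The log2 fold change was 0.66 for TFPIα against empty vector (SE 0.26, 95% interval 0.06 to 1.25, limma adjusted p = 0.346) and 0.51 for TFPIβ against empty vector (SE 0.26, -0.08 to 1.11, adjusted p = 1). Without empty vector replicate 3, the array with the lowest KRT18, the values were 0.40 and 0.26. At matched replicate numbers KRT18 was higher by 0.22, 0.52 and 1.23 with TFPIα and by 0.25, 0.66 and 0.63 with TFPIβ. A dimmer probe set of KRT18 alone followed the first over the arrays (r = 0.996, n = 9) and gave 0.46 and 0.37 for the same comparisons. A brighter one, assigned to KRT18 and MIR622 together, gave 0.67 and 0.47. As for KRT16, whether any of these probe sets also reads related sequence was not tested.

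KRT7, a type II keratin of ducts and glands, had log2 signals of 10.47, 10.32 and 10.30 in TFPIα-labelled arrays, 10.50, 10.18 and 10.38 in TFPIβ-labelled arrays and 10.77, 10.49 and 10.59 in arrays labelled empty vector. All TFPIα values lay below all empty vector values, and TFPIβ overlapped with empty vector by 1 array, TFPIβ replicate 1 against empty vector replicate 2. The log2 fold change was -0.26 for TFPIα against empty vector (SE 0.12, 95% interval -0.52 to 0.01, adjusted p = 0.360) and -0.26 for TFPIβ against empty vector (SE 0.12, -0.53 to 0.00, adjusted p = 1). At matched replicate numbers both transfected groups were lower at every number, with differences of -0.30, -0.17 and -0.29 for TFPIα and of -0.27, -0.31 and -0.21 for TFPIβ. The vector group accounted for 54.7% and the replicate number for 39.4% of its sum of squares, which left 5.91% unaccounted for, against a median of 32.0% over all probe sets tested. Both comparisons share the same 3 empty vector arrays.

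KRT8, the type II partner of KRT18, had log2 signals of 5.68, 5.86 and 5.85 in TFPIα-labelled arrays, 5.92, 5.91 and 5.77 in TFPIβ-labelled arrays and 5.83, 6.20 and 5.72 in arrays labelled empty vector. Empty vector replicate 2 was the highest and the groups overlapped. Its log2 fold change was -0.12 for TFPIα against empty vector (SE 0.13, 95% interval -0.42 to 0.19) and -0.05 for TFPIβ against empty vector (SE 0.13, -0.35 to 0.25), values that turned to 0.03 and 0.10 without empty vector replicate 2. KRT19, a type I keratin of luminal cells, had 4.85, 4.75 and 4.64 in TFPIα-labelled arrays, 5.09, 5.25 and 4.84 in TFPIβ-labelled arrays and 4.68, 5.01 and 4.84 in arrays labelled empty vector. It was the dimmest of the 8 and passed the filter at 5 only through TFPIβ replicates 1 and 2 and empty vector replicate 2. TFPIβ replicate 3 overlapped with the TFPIα values. The log2 fold change of KRT19 was 0.31 for TFPIβ against TFPIα (SE 0.13, 95% interval 0.01 to 0.62, adjusted p = 0.532), and TFPIβ was higher at all 3 replicate numbers. KRT19 was tested largely because of TFPIβ arrays, so this difference is a description only.

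None of the 8 keratins passed the test in any comparison between groups, which asked for an adjusted p under 0.05 together with a change of 2-fold or more. All 8 passed the filter, a log2 signal of at least 5 in 1 array or more. For TFPIα against empty vector 0 of 8 were called, where 0.00572% of the 17482 probe sets were, and for TFPIβ against empty vector and for TFPIβ against TFPIα 0 of 8 were called, where 0% were. The unmoderated one-way model called 0 of 8 in each as well. At an unadjusted p under 0.05 with limma, 1 of 8 was higher in TFPIα against empty vector, KRT18, beside 8.59% of all probe sets, and 0 were lower, beside 5.58%. In TFPIβ against empty vector 0 were higher and 0 lower, beside 2.49% and 2.23%. In TFPIβ against TFPIα 1 was higher, KRT19, beside 3.94%, and 0 were lower, beside 4.70%. KRT19 passed the filter only through TFPIβ replicates 1 and 2 and empty vector replicate 2, so its place in this count is a description only. With TFPIα against empty vector the values did not overlap for 1 keratin that was higher and for 1 that was lower, KRT18 and KRT7, where 14.4% and 8.85% of all probe sets did not. With the replicate number as a block, which treats arrays of the same number as paired, KRT18 was higher and KRT7 lower at an unadjusted p under 0.05 (limma) for both isoforms against empty vector. That is 1 of 8 in each direction, beside 11.9% higher and 8.38% lower of all probe sets for TFPIα and 3.64% higher and 3.51% lower for TFPIβ. The block left 1 of 8 higher, KRT19, for TFPIβ against TFPIα, beside 6.19%, and 0 lower, beside 9.21%. The same limit on KRT19 holds there. With the block 0 of 8 were called in each comparison. The median log2 fold change of the 8 was -0.19 for TFPIα against empty vector, -0.03 for TFPIβ against empty vector and 0.12 for TFPIβ against TFPIα, beside a median of 0.00 over all probe sets in each. The 95% intervals bound what these arrays could show. Those of KRT5 went no further than -0.42 and 0.41 in the 3 comparisons, whereas those of KRT15 reached -4.94, -3.52 and 4.52.

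**Figure D3:**
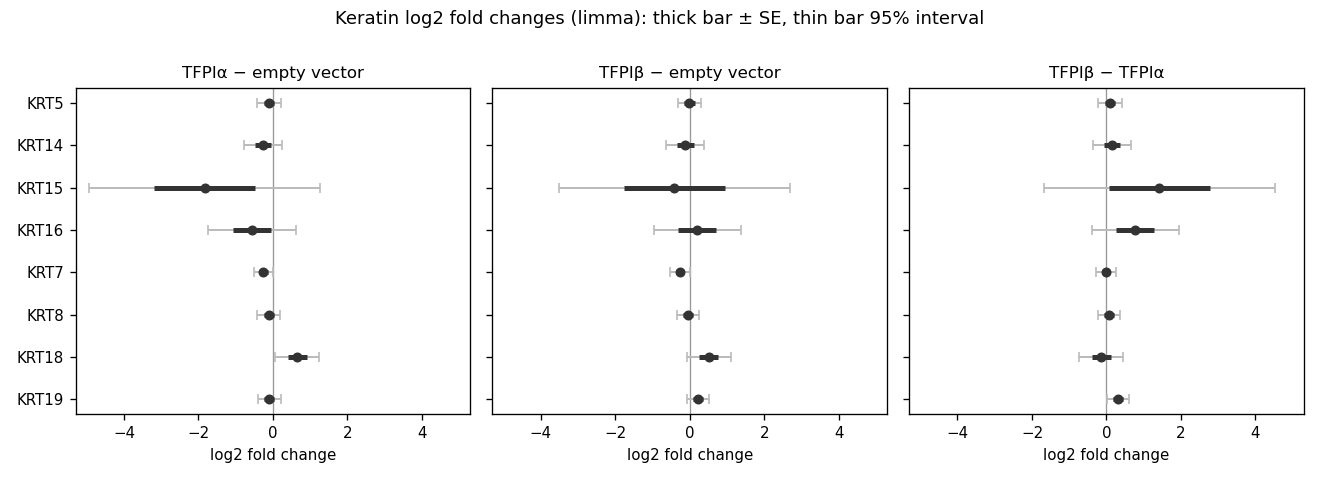
Log2 fold changes of 8 keratins in 3 comparisons by limma, with thick bars for ± SE and thin bars for the 95% interval, on a common scale. The intervals of KRT15 reach from -4.94 to 1.27 for TFPIα against empty vector, whereas those of KRT5 stay between -0.42 and 0.41 in all 3 comparisons.

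Across replicate numbers, with the vector group in the model, 0 of 8 keratins were called at an adjusted p under 0.05 by the limma F-test, where 0% of all probe sets were. At an unadjusted p under 0.05 there were 2 of 8, KRT15 (adjusted p = 0.249) and KRT7 (adjusted p = 0.312), beside 16.0% of all probe sets.

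The 3 arrays with the lowest KRT15 signal, TFPIα replicates 2 and 3 and TFPIβ replicate 3, were also the 3 lowest for KRT5 and KRT14, and for none of the other 5 keratins measured. Of all 17482 probe sets 10.0% had the same 3 lowest arrays. This count follows an order of arrays read from KRT15 and is a description with no test. Some filament anchoring genes were lowest in the same arrays, and others were not. DSP, which encodes desmoplakin, the protein that ties keratin filaments to desmosomes, had log2 signals of 9.03, 7.99 and 8.07 in TFPIα-labelled arrays, 9.36, 9.55 and 8.11 in TFPIβ-labelled arrays and 8.98, 9.35 and 8.94 in arrays labelled empty vector. PPL, which encodes periplakin, a linker of filaments to the membrane, had 7.31, 6.35 and 5.96 in TFPIα-labelled arrays, 7.39, 7.22 and 6.06 in TFPIβ-labelled arrays and 7.11, 7.28 and 7.08 in arrays labelled empty vector. Of 16 anchoring genes 13 passed the filter and 6 of these had the same 3 lowest arrays, namely DSP, PPL, JUP (plakoglobin), DSG3 (a desmosomal cadherin), DST (a hemidesmosomal linker) and PERP, which is needed for desmosome assembly. DST and PERP are named for this pattern after their values were seen. PKP2 was instead highest in TFPIα replicates 2 and 3, at 8.41 and 7.82, and so was PLEC, at 8.56 and 8.59. FN1, the gene of the matrix protein fibronectin, ran the other way, with 7.55, 9.34 and 10.42 in TFPIα-labelled arrays, 7.56, 7.10 and 9.39 in TFPIβ-labelled arrays and 6.73, 7.02 and 8.66 in arrays labelled empty vector. FN1 was at its highest in the same 3 arrays, followed by empty vector replicate 3. The same 3 arrays were lowest for 4 of 8 basal epithelial markers that passed the filter (EGFR, ITGB4, CDH3 and TRIM29), 4 of 14 regulators (TFAP2A, SP1, NFE2L2 and EGFR), 2 of 11 luminal and SK-BR-3 markers (GATA3 and MUC1), 2 of 5 squamous differentiation markers (KRT13 and TGM1), 1 of 7 mesenchymal markers (COL1A1) and 0 of 1 leukocyte markers. What else these 3 arrays share was not tested.

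**Figure D4:**
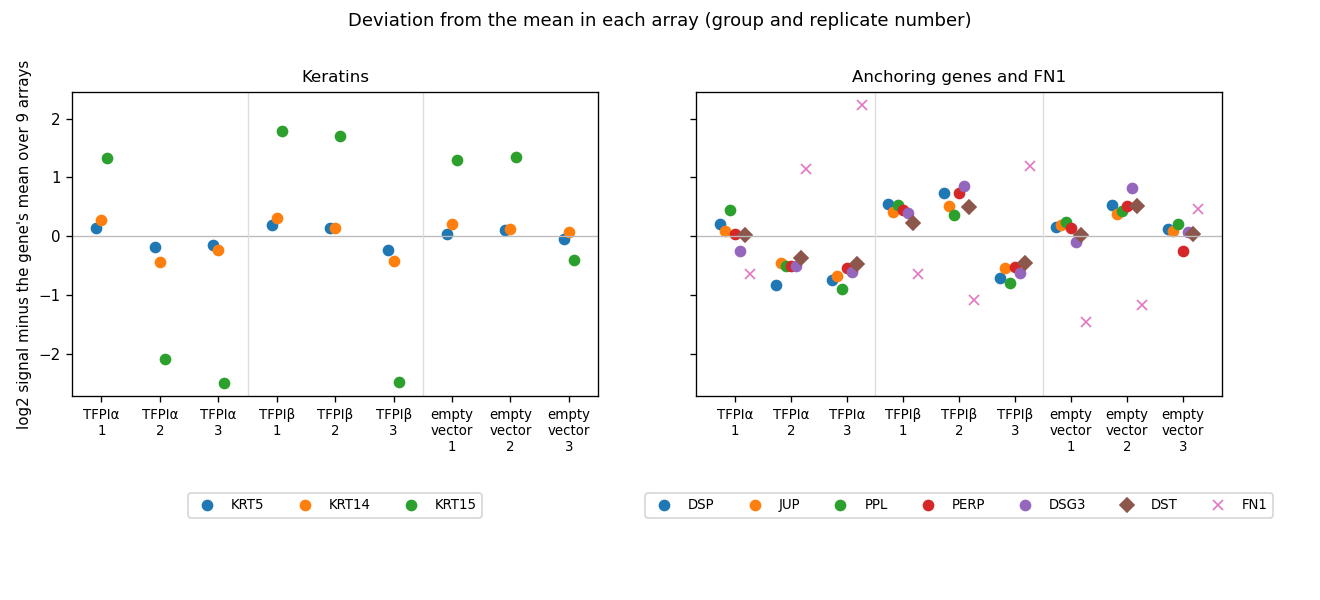
Log2 signal minus the gene's mean over the 9 arrays, for KRT5, KRT14 and KRT15 and for 6 anchoring genes and FN1 (crosses), with 1 point per gene and array. TFPIα replicates 2 and 3 and TFPIβ replicate 3 are below the mean for all genes but FN1, and KRT15 departs furthest.

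By Pearson r over the 9 arrays, as a description with no p, the genes most like KRT15 among 11231 genes were SULF2 (r = 0.992), CRYL1 (0.986), MSRB2 (0.984), CYB5D2 (0.982) and TRAFD1 (0.980), and 317 genes had an r above 0.9. SULF2 spanned log2 signals of 7.73 to 9.70, and CRYL1 only 5.42 to 5.93. The genes most like KRT16 were FLRT3 (0.958), PRCP (0.957), CNPPD1 (0.954), PRKAB2 (0.954) and HTRA1 (0.952), and 77 genes had an r above 0.9. The arrays share vector groups and replicate numbers, and for KRT15 r mostly reflects the separate sets of arrays.

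Keratins that pair in filaments were set against each other over the arrays. KRT5 and KRT14 had Pearson r = 0.951 over the 9 arrays (exact permutation p = 0.000204) and Spearman rho = 0.933 (exact permutation p = 0.000750), and r = 0.890 over the 7 arrays left without the 2 farthest from the median of KRT5. The r was 0.961 for deviations from the group means and 0.962 for deviations from the means of the replicate numbers. KRT14 left a gap between 3 arrays at 11.99 to 12.18 and 6 at 12.49 to 12.74. Within those 6, a division made after the values were seen, r was 0.714 (exact permutation p = 0.113) and rho 0.829 (exact permutation p = 0.0583). KRT14 and KRT15, both type I and so not partners, had r = 0.940 over the 9 arrays, so a high r was not particular to partners. How many of all genes have such an r with KRT5 or KRT14 was not counted. KRT5 with KRT15 was among the pairs fixed before testing, but was left untested after its values were seen. The reason was that KRT15 lay in clearly separate sets of fewer than 6 arrays each. As a description with no p, the r of KRT5 with KRT15 over the 9 arrays was 0.967. KRT8 and KRT18 had r = -0.00392 over the 9 arrays (exact permutation p = 0.991) and rho = 0.183 (p = 0.644), but r = 0.925 without empty vector replicate 2 and TFPIα replicate 1, so the value rests on these 2 arrays. KRT7 and KRT19 had r = -0.349 (exact permutation p = 0.357) and rho = -0.0837 (p = 0.834), but r = 0.672 without empty vector replicate 1 and TFPIβ replicate 2. With 3 pairs tested, the adjusted p was 0.000612, 0.991 and 0.536 for r, and 0.00225, 0.834 and 0.834 for rho, in the order given, by two-sided exact permutation tests. The permutations treat the 9 arrays as exchangeable. The arrays share vector groups and replicate numbers, and these p-values do not allow for that.

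Among genes known to act on keratin expression, 14 of 18 passed the filter and 0 were called in each comparison. Of all probe sets at most 0.00572% were called in a comparison. A count of 0 therefore does not set these genes, or the anchoring genes below, apart. IL1A, the gene of the cytokine interleukin-1α, which activates keratinocytes, stood out by size, with log2 signals of 5.01, 5.78 and 5.85 in TFPIα-labelled arrays, 5.77, 6.49 and 5.83 in TFPIβ-labelled arrays and 6.97, 7.67 and 7.78 in arrays labelled empty vector. Both transfected groups lay below the empty vector group without overlap, at log2 fold changes of -1.92 (SE 0.31, limma adjusted p = 0.289) and -1.44 (SE 0.31, adjusted p = 0.665). For TFPIα 8.85% of all probe sets were lower without overlap, and for TFPIβ that share is not given here. IL1A was named for the size of its change, so its lack of overlap is a description only. FOS, a subunit of AP-1, had log2 fold changes of 0.67 and -0.41 for TFPIα and TFPIβ against empty vector (SE 0.64). For GRHL3, a transcription factor of the epidermal barrier, they were 0.22 and -0.35 (SE 0.24). For EGFR, the epidermal growth factor receptor, they were -0.34 and -0.14 (SE 0.21). The study reports more EGFR RNA with either isoform, and more EGFR protein by Western blot. The signals here did not show that increase, and the reason was not tested. At an unadjusted p under 0.05, 0 of the 14 were higher and 3 lower with TFPIα against empty vector, IL1A, SP1 and TFAP2A, beside 8.59% and 5.58% of all probe sets, and 0 were higher and 1 lower, IL1A, with TFPIβ, beside 2.49% and 2.23%. Of the 13 anchoring genes 0 were called, and at an unadjusted p under 0.05 2 were higher with TFPIα, PKP2, a desmosomal plaque gene, at 0.47 (SE 0.20) and PLEC, the gene of the linker plectin, at 0.34 (SE 0.14), while 0 were lower, beside the same 8.59% and 5.58%. In the comparisons with empty vector the largest changes by size among them were -0.72 (SE 0.41) for DSP, -0.71 (SE 0.38) for DSG3, -0.62 (SE 0.41) for PPL and -0.57 (SE 0.30) for JUP, all with TFPIα against empty vector. None of them passed the test.

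The marker lists gave no calls either, with 0 of 8 basal epithelial, 0 of 11 luminal and SK-BR-3, 0 of 5 squamous differentiation, 0 of 7 mesenchymal and 0 of 1 leukocyte markers. Of all probe sets 0.00572% were called for TFPIα against empty vector and 0% in the other comparisons. A count of 0 therefore does not set any list here, or the other keratins below, apart. For TFPIα against empty vector the largest values were -0.86 (SE 0.27) for ITGB4, a hemidesmosome integrin, -1.34 (SE 0.36) for MUC1, a luminal mucin, -1.30 (SE 0.31) for TGM1, the transglutaminase of the cornified envelope, 1.63 (SE 0.87) for FN1 and -0.40 (SE 0.63) for CD14. Of 40 other keratin genes measured 8 passed the filter, 0 were called and 38 were below percentile 50. The study lists KRT4 among the genes most upregulated with TFPIβ, and KRT80 as upregulated with both isoforms. Here KRT4 had log2 fold changes of -0.17 for TFPIα and -0.02 for TFPIβ against empty vector (SE 0.10), and KRT80 did not pass the filter. KRT10, the type I keratin of differentiating epidermis, was the bright one, with log2 signals of 10.77, 10.23 and 9.35 in TFPIα-labelled arrays, 10.87, 12.18 and 9.73 in TFPIβ-labelled arrays and 9.97, 11.12 and 8.93 in arrays labelled empty vector. In each group it was lowest at replicate 3, and its SD of 1.00 lay between those of KRT15 and KRT16. KRT1, the type II partner of KRT10 in epidermis, was at 3.73 ± 0.08 (SD, n = 9).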

How the data were processed

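Values were the deposited log2 signals, 1 per probe set, which the authors made from the scanned arrays with RMA in Partek (versions not given in the sources used here); the log base was read from their range. Probe sets whose highest log2 signal was under 5 were removed, which left 17482 of 33297. All 9 arrays were fitted with limma 3.58.1 in R 4.3.3, and p-values were adjusted by Benjamini-Hochberg over all these probe sets. The authors' comparisons were not used. The F-test of the replicate number had the vector group in the model. Correlations had exact two-sided permutation tests (Python 3.11.15, scipy 1.17.1). The smallest p that a permutation test of 3 arrays against 3 can give is 0.1, and none was used between groups. The fits were tested on simulated data. Array medians of log2 signals were 4.78 to 4.88, and the number of arrays limits the precision.

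The keratins and the gene lists (anchoring genes, regulators, markers) were chosen with earlier results of these data known. Named by rule were all 10 keratins, up to 4 genes of a list with the largest change against empty vector, and the 5 genes most like each of the 2 most variable keratins; other names were chosen after their values were seen. Percentiles rank genes on probe sets of 1 symbol.

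The labels number the arrays of a group 1 to 3. Deviations from the group means correlated at 0.137 to 0.594 over the 9 pairs of arrays of the same number. Over the other 18 pairs they correlated at -0.512 to 0.266. Arrays of the same number thus tended to be more alike, but the ranges overlapped. Deviations also cancel within a group, which pushes the other pairs down where same-number pairs are high. Alternatives were an adjusted p under 0.1, no fold limit (added after the data were seen), variances not moderated, a fit of the compared groups alone, no filter or a filter at 6, median centring, a trended robust prior, the mean of a gene's probe sets, the replicate block and each array left out. Promoter sequences came from RefSeq.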

Additional observations from a re-analysis of the deposited data

How the results depend on the processing

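With 3 arrays a group, an interval such as that of KRT15 leaves changes of several log2 units undetectable. The count of keratins called stayed at 0 in every comparison and for the replicate number under all alternatives run; at a filter of 6 KRT19 was not tested. With the replicate block, 0 keratins were called in each comparison, and the pairing changed no call of a keratin. Over all probe sets the block gave 0 calls, against 1 without it, for TFPIα and empty vector, 0 against 0 for TFPIβ and empty vector, and 1 against 0 for TFPIβ and TFPIα. The lowest adjusted p of a keratin in the limma F-test of the replicate number was 0.0904 to 0.501 over single omitted arrays and 0.240 to 0.463 over the other alternatives. Thresholds, filters, the prior, moderation, a fit of the compared groups alone and the block leave a fold change as it is. No sign could change under these. No keratin change had passed the test. Under the other alternatives a fold change of a keratin changed sign only when 1 array was left out. Over these omissions the log2 fold change for TFPIβ against empty vector was -1.14 to 0.999 for KRT15, -0.30 to 0.75 for KRT16, -0.27 to 0.10 for KRT14, -0.0871 to 0.13 for KRT5 and -0.15 to 0.10 for KRT8. For TFPIα against empty vector it was -0.22 to 0.0271 for KRT8. For TFPIβ against TFPIα it was -0.00815 to 0.36 for KRT14, -0.0800 to 0.0808 for KRT7 and -0.26 to 0.0597 for KRT18. Ranges that kept their sign but moved by over 1.5 times were, for TFPIα against empty vector, -3.04 to -1.13 for KRT15, -0.81 to -0.27 for KRT16, 0.40 to 0.90 for KRT18, -0.46 to -0.11 for KRT14, -0.20 to -0.04 for KRT5 and -0.18 to -0.02 for KRT19, for TFPIβ against empty vector 0.26 to 0.76 for KRT18 and 0.12 to 0.33 for KRT19, and for TFPIβ against TFPIα 0.69 to 2.83 for KRT15, 0.27 to 1.32 for KRT16, 0.01 to 0.23 for KRT5 and 0.01 to 0.12 for KRT8. The number of keratin pairs with an adjusted permutation p under 0.05 was 1, KRT5 and KRT14. It became 2 without the 2 arrays farthest from the median (KRT8 and KRT18, r = 0.925), and 0 with KRT5 and KRT14 taken within the 6 arrays above the gap of KRT14 (r = 0.714), an alternative chosen after seeing the data. For KRT8 and KRT18, r turned to 0.0180 with centred arrays and to 0.305 with deviations from the group means. For KRT7 and KRT19 it turned to 0.672 without the 2 farthest arrays. The causes were not tested.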
